A study of Chlamydomonas reinhardtii with 12 samples.

Results

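Pyruvate is the branch point of fermentation in the green alga Chlamydomonas reinhardtii, and the 3 genes described here encode enzymes that consume it when oxygen is absent. Pyruvate formate lyase (PFL1) splits pyruvate into acetyl-CoA and formate. Pyruvate ferredoxin oxidoreductase (PFR1) releases carbon dioxide, makes acetyl-CoA and passes electrons to ferredoxin, from which a hydrogenase can form hydrogen. Pyruvate decarboxylase (PDC3) makes acetaldehyde, which an alcohol dehydrogenase can reduce to ethanol. In this alga, formate, acetate, ethanol, carbon dioxide and hydrogen are known end products in the dark without oxygen.

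The genes were chosen by identifier, as Cre01.g044800 (PFL1), Cre11.g473950 (PFR1) and Cre03.g165700 (PDC3), each with any transcript suffix. Each identifier had 1 gene model, so the set is 3 of the 17301 models in the deposited table (Cre01.g044800.t1.1, Cre11.g473950.t1.1 and Cre03.g165700.t1.2). RNA was sequenced from 4 strains at 3 stages, 1 sample for each combination, 12 in all. CC-124 was the wild type. The mutant crr1 was studied as such and after rescue with CRR1 (crr1:CRR1) or with crr1dCys. CRR1 is known as a transcription factor that governs the copper response, and crr1dCys lacks its cysteine-rich end. The light-oxic group was an aliquot of 100 ml that went back to light of 100 µmol photons per m2 per s in acetate-containing TAP medium. It was harvested 10 min after removal from the main culture. The other groups were aliquots of 100 ml stirred in the dark in sealed bottles of 118 ml for 0.5 h or 6 h. Darkness and loss of oxygen therefore came together and cannot be told apart. No light-oxic sample was held for 0.5 h or 6 h, so elapsed time cannot be told apart from them either. The labels name no independent clones or replicate cultures of a strain.

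Levels are RPKM, reads scaled to the length of the model and to the depth of the column, and can therefore be compared between genes. The steps of low values in the table gave 12000629 to 18894048 reads per column. 8 samples had 2 columns and 4 had 1, and the column names carry a series number (TS1, TS2 or TS4). Repeat columns of a sample had Pearson's r across 14311 models of 0.981 to 0.991 in 7 of the 8 pairs. The TS1 and TS4 columns of crr1:CRR1 at 6 h stood apart with r = 0.836, and 898 models differed there by 2 log2 units or more, against 7 to 31 in the other pairs. The gene table names no CRR1 model, so the targeted gene was not checked here. The part of that TS4 column in the 6 h results was not tested beyond leaving it out. Most tests at 6 h are therefore given with and without it. The TS4 columns of crr1:CRR1 in the light and at 0.5 h stayed in when it was left out.

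The same steps gave whole reads for all 20 columns of each gene, to within 0.003 of a read. The model lengths that fit were 3266 bases for PFL1, 4941 bases for PFR1 and 2714 bases for PDC3. PFL1 rested on 13664 to 46430 reads per column, PFR1 on 162 to 10885 and PDC3 on 186 to 5632. Counting error was therefore small against the rises of PFL1 and PFR1 from the light and the fall of PDC3 by 6 h. The smallest count, PFR1 at 6 h in crr1:CRR1 (TS4), gave 2.14 RPKM with an exact Poisson 95% interval of 1.82 to 2.499, which covers counting error only.

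PFL1 and PFR1 rose within 0.5 h of dark anoxia and were still high at 6 h, while PDC3 was level at 0.5 h and fell by 6 h. PFL1, the most abundant of the 3 throughout, went from 332 ± 41.1 to 709.6 ± 29.3 and then 760.2 ± 171 RPKM (mean ± SD over strains, n = 4). PFR1 went from 5.14 ± 1.67 to 39.7 ± 9.35 and 76.3 ± 48.3 RPKM (n = 4), or 95.01 ± 61.3 RPKM at 6 h without the TS4 column. PDC3 went from 92.6 ± 34.5 to 91.5 ± 27.4 and 36.5 ± 20.002 RPKM (n = 4), or 38.3 ± 17.1 RPKM at 6 h without that column. The model test was limma across all models with strain as a block, so p-values measure the spread between 4 strains that are related and not replicate cultures. The spread was pooled over the stages, so the 0.5 h p-values depend on the 6 h columns too. In bulk RNA, fewer cells with a transcript and less transcript per cell cannot be told apart. A gene was called at an adjusted p under 0.05 with a log2 fold change of at least 1 in size.

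**Figure D1:**
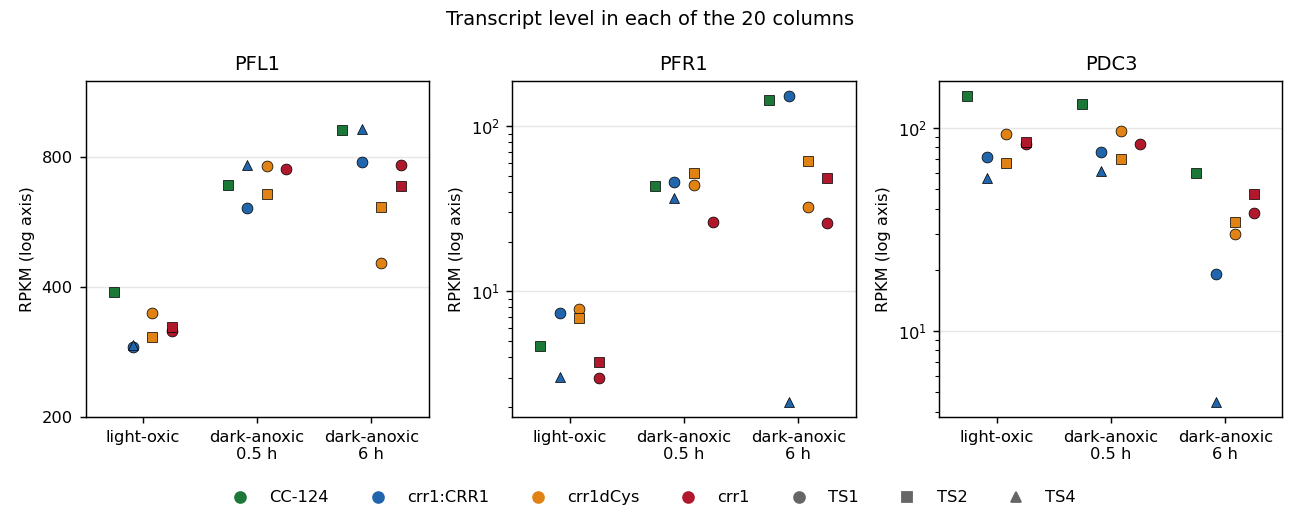
RPKM (log axes of different ranges) of PFL1, PFR1 and PDC3 at the 3 stages. Each point is 1 of the 20 columns, with colour for the strain and shape for the series. PFL1 and PFR1 are higher at 0.5 h than in the light in every strain, PDC3 is lower at 6 h, and the TS4 column of crr1:CRR1 (6 h) stands at 2.14 RPKM for PFR1 and 4.47 RPKM for PDC3.

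PFL1 was already abundant before the shift. In light-oxic culture it had 389 RPKM in CC-124, 290.4 (TS1) and 293 (TS4) in crr1:CRR1, 348 and 306 RPKM in crr1dCys (TS1 and TS2) and 316 and 322 RPKM in crr1 (TS1 and TS2). These values placed it above at least 98.2% of all models in every column. After 0.5 h it had 688 RPKM in CC-124, 611 (TS1) and 769 (TS4) in crr1:CRR1, 761 and 658 RPKM in crr1dCys and 751 RPKM in crr1, which has only a TS1 column at that time. No 0.5 h column overlapped the light-oxic range. At 6 h it had 926 RPKM in CC-124, 777 (TS1) and 928 (TS4) in crr1:CRR1, 455 and 614 RPKM in crr1dCys, and 767 and 687 RPKM in crr1. The lowest 6 h column, TS1 of crr1dCys, was still above the highest light-oxic column.

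The log2 fold change of PFL1 was 1.10 at 0.5 h (SE 0.16, limma adjusted p = 0.000487), with responses of 0.82 in CC-124, 1.11 in crr1dCys and 1.23 in both crr1:CRR1 and crr1. At 6 h it was 1.17 (SE 0.16, limma adjusted p = 0.000293), and 1.13 without the TS4 column. All 4 strains moved upward at both times. With the TS2 columns alone the 0.5 h change was 0.96, just under the size required, with a limma adjusted p of 0.0130. Between 0.5 h and 6 h the change was 0.07 log2 units (95% interval -0.28 to 0.41, limma adjusted p = 0.759), and 0.04 without the TS4 column. The level went on upward in CC-124 by 0.43 and in crr1:CRR1 by 0.31 log2 units, and stood at -0.42 in crr1dCys and -0.049 in crr1.

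PFR1 was scarce in the light and had the largest proportional change of the 3. Light-oxic columns had 4.67 RPKM in CC-124, 7.38 (TS1) and 3.02 (TS4) in crr1:CRR1, 7.78 and 6.93 RPKM in crr1dCys (TS1 and TS2) and 2.98 and 3.71 RPKM in crr1. After 0.5 h they had 43.2 RPKM in CC-124, 45.7 (TS1) and 36.9 (TS4) in crr1:CRR1, 43.8 and 51.9 RPKM in crr1dCys and 26.3 RPKM in crr1. The ranges did not overlap, and every strain was between 6.51 and 9.26 times its light-oxic RPKM. At 6 h the columns spread widely, with 144 RPKM in CC-124, 152 RPKM in TS1 of crr1:CRR1, 32.5 and 61.6 RPKM in crr1dCys, 25.8 and 48.5 RPKM in crr1, and 2.14 RPKM in TS4 of crr1:CRR1. That TS4 value lay below every light-oxic column, and the other 6 h columns lay above all of them.

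The log2 fold change of PFR1 was 2.76 at 0.5 h (SE 0.38, limma adjusted p = 0.000413) and 3.03 at 6 h (SE 0.38, limma adjusted p = 0.0002). Leaving out the TS4 column gave 3.73 at 6 h (SE 0.34, limma adjusted p = 1.76e-05). Among the 14311 models tested, PFR1 had rank 18 from the top at 0.5 h and rank 15 at 6 h, where PFL1 had ranks 411 and 463. Because 1 RPKM was added before taking logs, these values understate the change of a gene that starts low. From 0.5 h to 6 h the change was 0.28 log2 units (95% interval -0.56 to 1.11, limma adjusted p = 0.594). It was 0.98 without the TS4 column, with a limma adjusted p of 0.0380, just under the size required for a call. Leaving out CC-124 while keeping the TS4 column gave a later change of -0.21 log2 units. In that fit crr1:CRR1 stood at -0.94, a value that became 1.86 once its TS4 column at 6 h was dropped. No fit left out both CC-124 and that column, so the sign of -0.21 cannot be laid to CC-124 alone.

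PDC3 followed another course. Light-oxic columns had 143 RPKM in CC-124, 71.3 (TS1) and 56.2 (TS4) in crr1:CRR1, 93.2 and 66.7 RPKM in crr1dCys, and 82.7 and 84.9 RPKM in crr1. After 0.5 h they had 131 RPKM in CC-124, 75.8 (TS1) and 61.4 (TS4) in crr1:CRR1, 96.5 and 70.5 RPKM in crr1dCys and 82.7 RPKM in crr1, so the stages overlapped. Responses at 0.5 h lay between -0.12 and 0.11 log2 units, with a mean of 0.01 (95% interval -0.58 to 0.59, limma adjusted p = 0.985). At 6 h the columns had 59.6 RPKM in CC-124, 19.1 (TS1) and 4.47 (TS4) in crr1:CRR1, 30.0 and 34.3 RPKM in crr1dCys, and 37.9 and 47.1 RPKM in crr1. The 6 h value of CC-124 exceeded the TS4 light-oxic column of crr1:CRR1, but each strain was below its own light-oxic and 0.5 h columns.

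The log2 fold change of PDC3 was -1.53 at 6 h against light (SE 0.26, limma adjusted p = 0.00121) and -1.53 at 6 h against 0.5 h (SE 0.26, limma adjusted p = 0.00164). When the TS4 column was left out they were -1.29 (limma adjusted p = 3.37e-05) and -1.30 (limma adjusted p = 4.93e-05). Responses at 6 h were -1.25 in CC-124, -1.27 in crr1dCys, -0.97 in crr1 and -2.62 in crr1:CRR1, or -1.68 in the last without the TS4 column. Its rank was 309 from the bottom of the 14311 models at 6 h against light. CC-124 had the highest PDC3 level at each stage, with 143, 131 and 59.6 RPKM against highest values of 83.8, 83.5 and 42.5 RPKM among the other strains. CC-124 was measured in TS2 only and crr1:CRR1 never in TS2, so strain and series cannot be fully told apart in that difference. Among TS2 columns CC-124 was also the highest. There crr1dCys had 66.7, 70.5 and 34.3 RPKM at the 3 stages. The TS2 columns of crr1 gave 84.9 RPKM before the shift and 47.1 RPKM after 6 h, with none at 0.5 h. The difference was not tested.

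**Figure D2:**
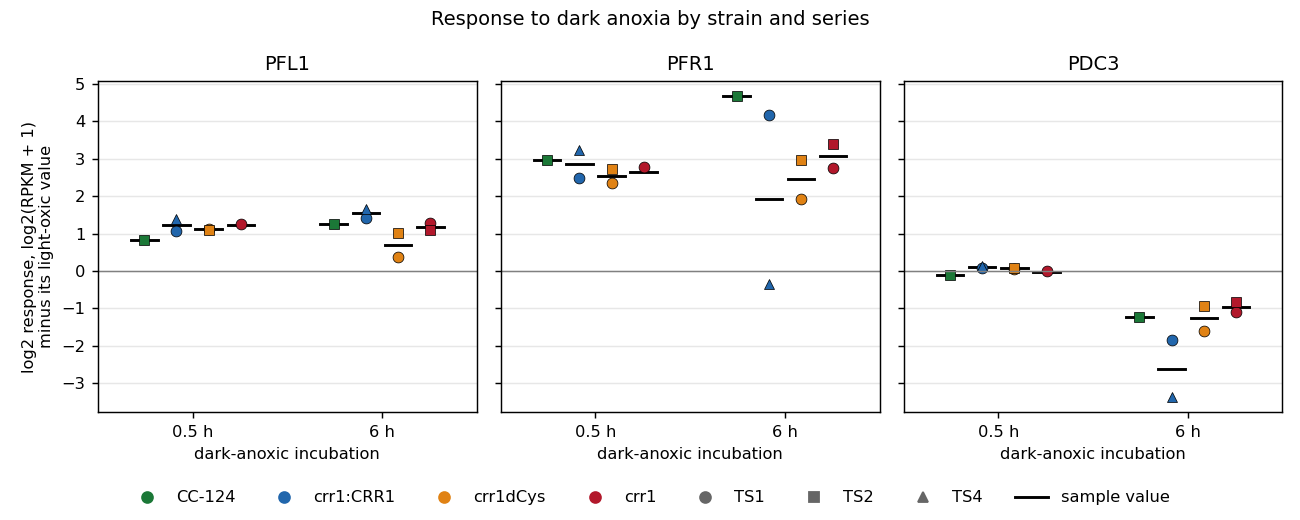
Response as log2(RPKM + 1) minus its light-oxic value, at 0.5 h and 6 h, for the 4 strains. Points are single series and black lines are the sample values used in the fit. At 0.5 h the strains lie close together for all 3 genes; at 6 h the PFR1 response is 4.68 in CC-124 and 4.19 in TS1 of crr1:CRR1, and -0.36 in TS4 of the latter.

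Set against all genes, 2 of the 3 were called higher at 0.5 h, where 3.41% of tested models were called higher and 4.92% lower. At 6 h against light, PFL1 and PFR1 were called higher and PDC3 lower, where 4.49% were called higher and 7.03% lower. From 0.5 h to 6 h, 1 of the 3 was called, PDC3, in the direction taken by 5.19% of models, while 3.4% were called higher. These comparisons share samples, so a gene's calls in them are not independent. The median log2 fold change over all tested models was 0.02 at 0.5 h and -0.03 at 6 h.

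**Figure D3:**
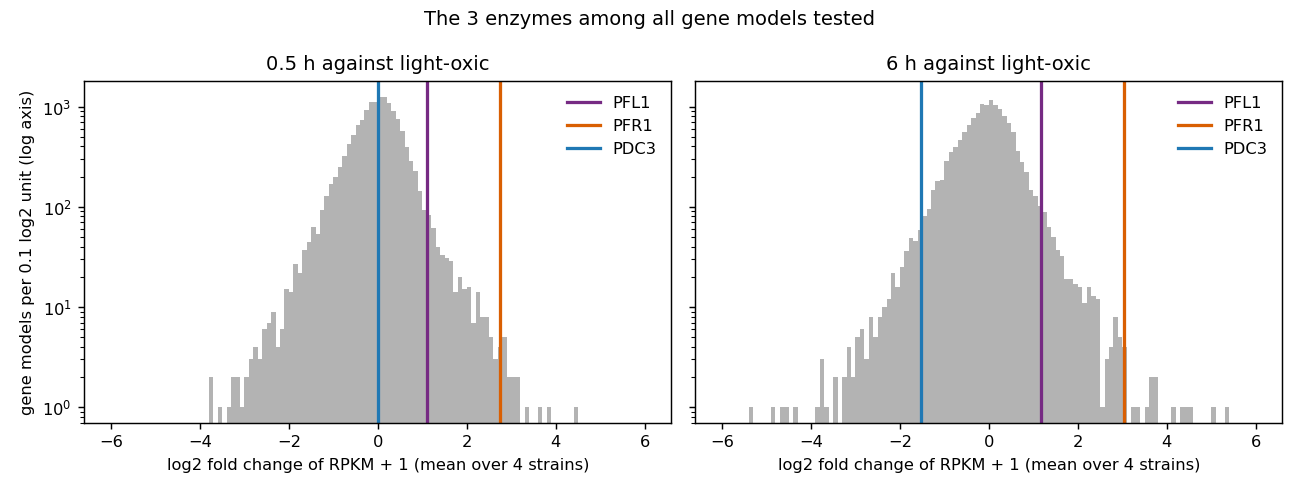
Histogram of log2 fold changes over the 14311 models tested, 0.5 h and 6 h against light-oxic culture, with gene models per bin on a log axis. Vertical lines mark the 3 genes: PFR1 lies far in the upper tail at both times, PFL1 at 1.10 and 1.17, and PDC3 moves from 0.01 to -1.53.

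The courses of the 3 genes were also compared with each other within each strain. At 0.5 h the PFL1 response minus that of PFR1 was -1.66 log2 units (SD 0.34, n = 4), below 0 in 4 of 4 strains. The PFR1 response exceeded that of PDC3 by 2.75 log2 units (SD 0.25, n = 4) in 4 of 4 strains. The PFL1 response exceeded that of PDC3 by 1.09 log2 units (SD 0.13, n = 4) in 4 of 4 strains. At 6 h the same differences were -1.86 (SD 1.25), 4.56 (SD 0.97) and 2.69 (SD 0.9996) log2 units, again with 1 sign in all 4 strains. They were -2.60, 5.02 and 2.43 log2 units when the TS4 column was left out. Within TS4 of crr1:CRR1 the PFL1 response was 1.66 and that of PFR1 was -0.36, the reverse order. Each of the 6 comparisons had an exact two-sided sign-flip permutation p of 0.13, the smallest that 4 strains allow, and the same value after adjustment over the 6.

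The balance of the 3 transcripts shifted accordingly. Their summed level in RPKM was 429.5 ± 75.1 in the light (n = 4), 841 ± 29.2 after 0.5 h and 873 ± 218 after 6 h. PFL1 took 77.7 ± 3.61% of that sum in the light, 84.4 ± 3.34% at 0.5 h and 87.4 ± 3.97% at 6 h. PFR1 went from 1.23 ± 0.461% to 4.73 ± 1.15% and 8.30 ± 3.37%, and PDC3 from 21.05 ± 3.89% to 10.8 ± 2.98% and 4.26 ± 2.00%. Without the TS4 column the 6 h shares were 85.3 ± 4.03% for PFL1, 10.3 ± 5.09% for PFR1 and 4.45 ± 1.62% for PDC3.

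The order of the levels changed between the stages. In the light and at 0.5 h it was PFL1, PDC3, PFR1 in every strain. PFL1 was at 2.73 to 4.58 times the PDC3 level in the light and 5.24 to 10.1 times at 0.5 h. At 6 h PFR1 stood above PDC3 in CC-124 (144 against 59.6 RPKM) and in crr1dCys (47.0 against 32.2 RPKM). In TS1 of crr1:CRR1 it was also above (152 against 19.1 RPKM) and in TS4 below (2.14 against 4.47 RPKM). In crr1 the means were 37.2 RPKM for PFR1 and 42.5 RPKM for PDC3, and TS1 and TS2 gave opposite orders. The exact Poisson 95% intervals of PFR1 and PDC3 overlapped in TS2 of crr1 (46.8 to 50.2 and 44.9 to 49.4 RPKM). They also overlapped in TS1 of crr1dCys (31.2 to 33.8 and 28.4 to 31.7 RPKM).

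**Figure D4:**
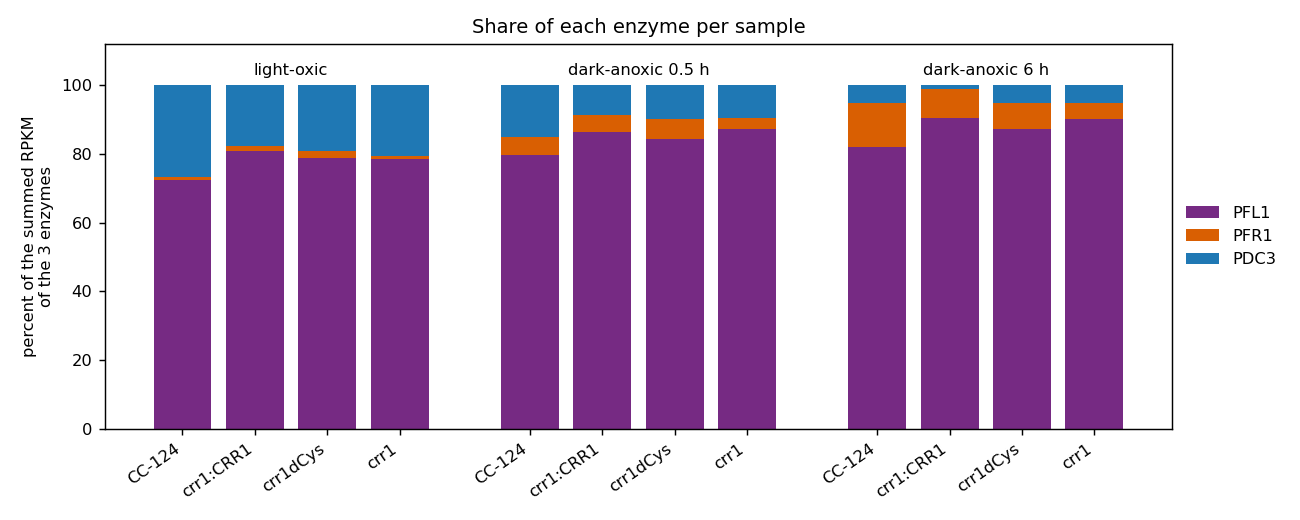
Share of each enzyme in the summed RPKM of the 3 genes, in percent, for each of the 12 samples. Bars stack to 100% within a sample. The PFR1 share is at most 1.77% in the light and between 4.61% and 12.8% at 6 h. The PDC3 share is at most 5.27% at 6 h. The crr1:CRR1 bar at 6 h joins TS1 and TS4, with a PFR1 share of 8.17%, or 16.0% without TS4.

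The question behind the mutant and rescued strains was whether the response needs CRR1. At 0.5 h the PFR1 response was 2.66 log2 units in crr1, 2.55 in crr1dCys, 2.96 in CC-124 and 2.86 in crr1:CRR1. Relative to the mean of CC-124 and crr1:CRR1, the crr1 response at 0.5 h differed by 0.21 log2 units for PFL1 (95% interval -0.67 to 1.09), -0.26 for PFR1 (-3.42 to 2.91) and -0.01 for PDC3 (-1.89 to 1.87). Without the TS4 column at 6 h, which enters the pooled spread, the PFR1 interval was -0.98 to 0.46. The test had 2 residual degrees of freedom, and limma adjusted p-values rounded to 1 for all 3. It called 0 of 14311 models at 0.5 h, with 215 at an unadjusted p under 0.05, or 376 without the TS4 column. For crr1dCys at 0.5 h the differences were 0.09 for PFL1 (95% interval -0.79 to 0.97), -0.37 for PFR1 (-3.53 to 2.80) and 0.07 for PDC3 (-1.81 to 1.95), again with limma adjusted p-values that rounded to 1. That fit also called 0 models, with 68 at an unadjusted p under 0.05, or 105 without the TS4 column. These unadjusted counts all lie below the share of 0.05 of tested models that chance alone would give.

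At 6 h PFR1 was the gene with the widest spread between strains, and the outcome rested on 1 column. Over all columns the crr1 response differed from that of the full-length strains by -0.22 log2 units (95% interval -3.39 to 2.94, limma adjusted p = 1). That mean joins 4.68 in CC-124, 4.19 in TS1 of crr1:CRR1 and -0.36 in TS4 of crr1:CRR1. Without the TS4 column the difference was -1.63 log2 units (95% interval -2.35 to -0.91), with an unadjusted p of 0.00134 and a limma adjusted p of 0.549. In that fit 0.014% of models were called lower in crr1. The difference therefore did not pass the correction over all models. That fit kept the TS4 light-oxic column, which put crr1:CRR1 at 4.72, near the 4.68 of CC-124, against 4.19 in TS1 alone. Its narrow interval rests on that nearness, with 2 residual degrees of freedom.

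Within a series the same direction was seen for PFR1. In TS1 the 6 h response was 1.44 log2 units higher in crr1:CRR1 than in crr1, and in TS2 it was 1.28 higher in CC-124 than in crr1. From 0.5 h to 6 h, PFR1 went on by 1.72 log2 units in CC-124 and 1.71 in TS1 of crr1:CRR1. Over the same time it changed by -0.02 in TS1 of crr1, and by -0.42 and 0.24 in TS1 and TS2 of crr1dCys. In TS4 of crr1:CRR1 it changed by -3.59. These are single columns with no test. The crr1 sample value was 0.42, which sets TS1 and TS2 at 6 h against TS1 alone at 0.5 h.

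The PFR1 response of crr1dCys at 6 h was 2.46 log2 units, against 3.07 in crr1 and 4.68 in CC-124. In crr1:CRR1 it was 1.92 over both columns and 4.72 without TS4 at 6 h, so the place of crr1dCys among the strains depends on that column. The 4.72 keeps the TS4 light-oxic column in its reference and enters the fit below, while TS1 alone gave 4.19. The difference from the full-length strains was -0.84 log2 units over all columns (95% interval -4.01 to 2.32, limma adjusted p = 0.854). Without the TS4 column it was -2.24 (95% interval -2.97 to -1.52), with an unadjusted p of 0.000234 and a limma adjusted p of 0.335, and 0 of 14306 models were called. Within TS1, crr1:CRR1 exceeded crr1dCys by 2.26 log2 units, and within TS2, CC-124 exceeded it by 1.70.

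For PFL1 at 6 h the crr1 response differed by -0.21 log2 units (95% interval -1.09 to 0.67, limma adjusted p = 1) and that of crr1dCys by -0.70 (-1.58 to 0.18, limma adjusted p = 0.770). Leaving out the TS4 column gave -0.15 and -0.64. The low crr1dCys value came mainly from TS1, at 0.38 log2 units, with 1.003 in TS2. For PDC3 the crr1 response differed by 0.96 log2 units (95% interval -0.92 to 2.84, limma adjusted p = 1), and by 0.49 (-0.41 to 1.39) without the TS4 column. Its crr1dCys response differed by 0.66 (95% interval -1.22 to 2.54, limma adjusted p = 0.820), and by 0.19 (-0.71 to 1.10) without that column.

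CC-124 was also set against the mean of the other 3 strains, which share the crr1 background. Its PFR1 response at 6 h was 2.20 log2 units higher (95% interval 1.09 to 3.31), with an unadjusted p of 0.00179 and a limma adjusted p of 0.121. The difference was 1.26 without the TS4 column (95% interval -0.33 to 2.86, limma adjusted p = 0.353). None of the 3 genes was among the 0.3% of models called higher or the 0.147% called lower in CC-124 at 6 h. Leaving out the TS4 column raised those calls from 43 to 149 higher and from 21 to 157 lower, and none of the 3 genes was among them. At 0.5 h, where 0.28% of models were called higher and 0.028% lower in CC-124, the differences were -0.37 for PFL1, 0.28 for PFR1 and -0.17 for PDC3, with limma adjusted p-values of 0.896, 0.957 and 0.990. The calls at 0.5 h numbered 40 higher and 4 lower, or 191 and 18 without the TS4 column, in neither case with any of the 3 genes.

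Repeat columns give a measure of error for each gene. Outside crr1:CRR1 at 6 h, the 7 pairs differed by 0.01 to 0.43 log2 units for PFL1, 0.15 to 1.06 for PFR1 and 0.04 to 0.48 for PDC3. PFR1 thus varied most between columns of 1 sample, with 0.90 and 0.88 log2 units in crr1dCys and crr1 at 6 h. In both of these the TS2 column was the higher. In crr1:CRR1 at 6 h the pair differed by 5.60 log2 units for PFR1, more than 99.9% of tested models in that pair. In that pair the differences were 1.87 for PDC3 and 0.26 for PFL1.

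The models most like each gene over the 12 samples were found by Pearson's r of log2(RPKM + 1) among 10361 other models with a range of at least 1 log2 unit. The values are descriptions without a test, and the samples share strains and stages. For PFL1 the first was Cre09.g410450.t1.1 (r = 0.969), with stage means of 2.49, 9.67 and 14.3 RPKM. For PFR1 it was Cre16.g652000.t1.2 (r = 0.953), with 58.7, 223 and 279.7 RPKM. Without the TS4 column its r was again 0.953, but 2 others of the 5 models most like PFR1 then had higher values, 0.958 and 0.959, so its first place depends on that column. For PDC3 the first 2 were Cre09.g386650.t1.1 (r = 0.992), with 1416, 1338 and 743 RPKM, and Cre06.g250200.t1.1 (r = 0.977, or 0.938 without the TS4 column), with 1756, 1532 and 902 RPKM. The sources used here pair none of these identifiers with a name. PFR1 and PFL1 had r = 0.876 with each other, or 0.917 without the TS4 column, and PDC3 had r of -0.35 with PFL1 and -0.21 with PFR1, or -0.30 and -0.54 without that column.

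In the RefSeq annotation of assembly v5.5, PFL1 lies on chromosome 1 and PDC3 on chromosome 3. The gene after PFL1, Cre01.g044850.t1.1, overlaps it there, and whether the counting used strand is not given in the sources used here. That model had 1.13 ± 0.136, 1.29 ± 0.471 and 1.07 ± 0.124 RPKM at the 3 stages (n = 4), far under PFL1. The neighbours of PDC3 do not overlap it. The one before it had 14.9 ± 0.930, 19.4 ± 2.39 and 10.1 ± 2.83 RPKM (n = 4), with -0.91 log2 units from 0.5 h to 6 h (limma adjusted p = 0.00416), just under the size required. The one after it had 10.8 ± 1.89, 8.68 ± 2.19 and 12.4 ± 4.41 RPKM (n = 4), and neither neighbour was called in any of the 3 comparisons.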

How the data were processed

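Transcript levels of 12 samples (4 strains, 3 stages) were read from 1 table of 17301 models in 20 columns. Bowtie is named per the submitters' processing notes, and for the build, annotation, counting method and strand setting the sources used here give nothing. The table deposited by the authors has no unit in its header and was read as RPKM, because its steps at low values gave whole model lengths (to 0.1 base) for 100% of 590 models checked, and for 19.95% on average when 21 wrong depths were tried. A smaller depth with longer models would fit as well, and would leave the reads per value as they are. The abbreviations of crr1 and crr1:CRR1 in the column names were told apart by elimination.

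Repeat columns were averaged as log2(RPKM + 1), and the 14311 models averaging 1 RPKM or more were tested with limma 3.58.1 in R 4.3.3 (mean-variance trend, Benjamini-Hochberg adjustment). Printed RPKM means are arithmetic. Strain was the block, since samples pair by strain by the labels; deviations from stage means had r of 0.139 to 0.743 within a strain and -0.575 to 0.322 between strains. The limma fits of the response at 6 h and of the crr1 difference at 6 h were tested on simulated data. The check required that planted changes came back at their size. The simulated noise was independent between samples, with no column like TS4 of crr1:CRR1 at 6 h. It therefore gives no error rates for these data. Members and lists were chosen with earlier results of these data known. Genes were named as the 3 members, their most similar models and their neighbours, the last chosen after values were seen. Lists of partner enzymes were planned by symbol and, with no symbols for them in the table used, were not analysed here. Of the 17301 models, 12666 matched a RefSeq locus tag. Alternatives were other pseudocounts, filters, scalings, series, strains left out and no block.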

Additional observations from a re-analysis of the deposited data

Results flagged for a closer look

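At 6 h against 0.5 h, the PFL1 response was above 0 in both strains with full-length CRR1 (0.43 log2 units in CC-124 and 0.31 in crr1:CRR1) and below 0 in crr1, at -0.049 log2 units, and in crr1dCys, at -0.42 log2 units. Opposite signs drew attention to these values, and the difference was not tested. In TS1, the only series with crr1 at 0.5 h, the crr1 value was 0.03. The crr1 value is smaller in size than the 0.16 log2 units between its repeat columns at 6 h. The crr1:CRR1 value was 0.18 without the TS4 column, and its repeat columns differed by 0.33 at 0.5 h and 0.26 at 6 h. In crr1dCys the value was -0.74 in TS1 and -0.10 in TS2, with 0.43 between its columns at 6 h. CC-124 had no repeat columns. Among 18 sets of 4 strain values of the 3 genes, 0 had a strain far from the rest by Dixon's criterion, where chance flags about 1 in 20. With 4 values in a set the criterion flags only a very distant strain, and the sets share samples. The count therefore cannot show that no strain stood apart.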

How the results depend on the processing

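The calls of PFL1 and PFR1 at 6 h, of PFR1 at 0.5 h and of PDC3 at 6 h held under all 15 alternatives, with ranges of 1.03 to 1.48, 2.48 to 3.73, 2.13 to 2.98 and -1.71 to -1.01 log2 units. With TS2 columns alone, PFL1 at 0.5 h was 0.96, under the size required, and the strains in TS2 differ too. Uncalled values changed sign: PFL1 from 0.5 h to 6 h was -0.12 with TS1 alone, and the crr1 difference of PDC3 at 0.5 h was 0.19 under median of ratios scaling. With 1 strain left out, PDC3 at 0.5 h ranged from -0.025 to 0.050 (-0.011 without crr1dCys). PFL1 from 0.5 h to 6 h then ranged from -0.053 to 0.23 (-0.014 without crr1:CRR1), and PFR1 from -0.21 to 0.68. Wherever crr1:CRR1 stayed in, these fits kept its TS4 column at 6 h. The CC-124 difference of PFR1 at 6 h was 1.93 with a pseudocount of 5 and passed (limma adjusted p = 0.0336; 0.0336 to 0.353 over 5 alternatives). The cause was not tested. With no replicate block no call of the 3 genes changed, and PDC3 at 6 h kept -1.53 with a limma adjusted p of 0.0258.

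Calls over all models at 0.5 h numbered 488 higher and 704 lower, and 747 higher with a pseudocount of 0.1, or 248 and 299 with 5. At 6 h they numbered 643 and 1006, or 287 and 506 with 5. From 0.5 h to 6 h they numbered 487 and 743, or 739 and 1133 with 0.1 and 188 and 365 with 5. Alternatives for the comparisons between the 3 genes were chosen after seeing the data and kept their signs. There was 1 sample per strain and stage, and leaving out the TS4 column took the SE of the crr1 difference of PFR1 at 6 h from 1.24 to 0.30.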
